A study of Homo sapiens with 6 samples.

Results

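RB1 knockdown within Ras-induced senescence was followed on 4 of the 6 expression arrays of the study, namely 2 arrays of senescent fibroblasts given siRNA against RB1 (RB-KD OIS) and 2 of senescent fibroblasts given a control siRNA (Ctrl-KD OIS). These arrays were taken by their labels alone, and the 2 arrays of growing cells served only as a reference level. All cells were IMR90, a line of normal human lung fibroblasts, carrying an oncogenic Ras fused to a hormone-binding domain (ER:Ras) that 4-hydroxytamoxifen (4-OHT) switches on. Oncogene-induced senescence (OIS) is the lasting growth arrest that such a Ras signal brings about. To reach OIS, cells were kept in 100 nM 4-OHT for 6 days, and siRNA was introduced 2 days after 4-OHT was added and 4 days before RNA was taken. The RB1 siRNAs were a mixture of 3, and the control siRNA was directed at firefly luciferase. The OIS states thus differ in siRNA sequence as well as in RB1, and effects of these cannot be told apart on the arrays. Growing cells received neither 4-OHT nor siRNA, so that a difference from growing cells holds the effects of Ras and of transfection together. The labels describe the 2 arrays of each state as biological replicates.

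RB1 encodes RB, a pocket protein that binds E2F transcription factors at promoters and holds their target genes down when cells leave the cycle. When cyclin-dependent kinases phosphorylate RB, E2F is released and the genes of DNA replication are transcribed. In senescent cells RB is known for keeping these genes silent and for the packing of chromatin into heterochromatin foci. A separate repressor, the DREAM complex of the RB relatives p107 and p130 with the MuvB subunits, acts on mitotic genes through a promoter element called CHR.

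The siRNA mixture lowered RB1 mRNA in both replicates. Its MAS5 signal, the linear intensity of the array software, was 2627 and 2528 in growing cells, 2578 and 1915 in Ctrl-KD OIS cells and 222 and 229 in RB-KD OIS cells. RB1 was thus 9.87-fold lower in RB-KD OIS than in Ctrl-KD OIS cells, and the arrays of the states did not overlap. The log2 difference was -3.30 ± 0.14 (SE; adjusted p = 2.73e-06), from limma fitted over all genes. A second RB1 probe set read no more than 53.1 on any array, and averaging both probe sets ended the call (log2 difference -1.48, adjusted p = 0.251). The cells carried fibroblast transcripts in every state. All 12 fibroblast markers lay above the array median on all 6 arrays, with a summed signal of 153400 and 152630 in Ctrl-KD OIS cells and 203490 and 171170 in RB-KD OIS cells. None of the 6 leukocyte markers with a probe set lay above the median on all arrays, and their summed signal was 151.6 to 241.8. Of the 9 epithelial markers, the keratins KRT18 and KRT8 lay above the median on all 6 arrays and EPCAM on 5, while CDH1, KRT5, KRT14 and ESRP1 lay above it on none. Their summed signal was 3199.7 to 4179.5, mostly KRT18. EPCAM had 66.8 and 38.6 in Ctrl-KD and 109.8 and 141 in RB-KD OIS cells and was not called, with a log2 difference of 1.29 (adjusted p = 0.0508).

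Among 13398 genes tested, 1682 were higher (12.6%) and 1556 lower (11.6%) in RB-KD OIS than in Ctrl-KD OIS cells at a limma adjusted p under 0.05. The rises were larger than the falls, with a median size of 0.73 against 0.56 on the log2 scale. A change of at least 2-fold was called for 551 rises (4.11%) and 220 falls (1.64%), and one of at least 4-fold for 126 rises and 52 falls. The median over all genes was -0.02. These counts depended on the arrays used, and without the first RB-KD OIS array they were 1067 higher and 852 lower. They also depended on the probe sets, since averaging the probe sets of each gene gave 874 higher and 775 lower. With only 2 arrays in each state, an exact two-sided permutation test of any gene alone cannot give a p below 0.333, so the calls rest on a spread shared across genes and arrays. Arrays of 2 states that do not overlap reach only this p of 0.333. The share of all tested genes without overlap is not given here, and the largest rises and falls were picked among such genes. Where a lack of overlap is stated below, it describes the arrays and adds no support to a call. In bulk RNA, fewer cells that express a gene and less RNA of it per cell cannot be told apart.

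Genes that start DNA replication rose in RB-KD OIS cells. Of 30 tested genes of origin licensing and firing, 20 were higher (66.7%) and 0 lower, with a median log2 difference of 1.51. DTL, CDC6, MCM3 and MCM6 had the largest rises in this list. Their promoters are printed here because each holds a match to letters that E2F factors bind (TTTGGCGC, TTTCCCGC, TTTGGCGG or TTTCCCGG, searched on both strands, where a base may belong to more than 1 match). The sequences are those of RefSeq on GRCh38.p14, from 250 bases before to 50 bases after the start of the gene, 5′ to 3′ on the strand of the gene, with the matched letters in capitals. DTL lies on the plus strand at chr1:212035498-212035797, CDC6 on the plus strand at chr17:40287629-40287928, MCM3 on the minus strand at chr6:52284693-52284992 and MCM6 on the minus strand at chr2:135876394-135876693.
DTL: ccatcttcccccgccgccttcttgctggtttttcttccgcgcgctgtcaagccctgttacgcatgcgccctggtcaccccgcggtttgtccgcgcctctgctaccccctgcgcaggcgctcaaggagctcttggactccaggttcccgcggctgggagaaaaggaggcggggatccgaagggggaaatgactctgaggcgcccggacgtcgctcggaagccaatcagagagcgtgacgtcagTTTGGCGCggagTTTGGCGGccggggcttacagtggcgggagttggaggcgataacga
CDC6: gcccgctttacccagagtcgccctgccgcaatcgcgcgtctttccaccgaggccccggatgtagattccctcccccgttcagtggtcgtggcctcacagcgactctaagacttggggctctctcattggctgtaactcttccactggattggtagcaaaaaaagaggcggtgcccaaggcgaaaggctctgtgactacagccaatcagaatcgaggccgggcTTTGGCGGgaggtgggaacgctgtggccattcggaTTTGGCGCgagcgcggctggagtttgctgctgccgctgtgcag
MCM3: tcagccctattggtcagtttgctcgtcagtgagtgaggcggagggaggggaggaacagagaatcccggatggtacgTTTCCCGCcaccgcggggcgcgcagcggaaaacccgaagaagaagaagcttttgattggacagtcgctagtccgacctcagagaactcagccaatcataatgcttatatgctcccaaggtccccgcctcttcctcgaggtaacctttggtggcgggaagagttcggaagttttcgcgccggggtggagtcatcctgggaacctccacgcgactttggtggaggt
MCM6: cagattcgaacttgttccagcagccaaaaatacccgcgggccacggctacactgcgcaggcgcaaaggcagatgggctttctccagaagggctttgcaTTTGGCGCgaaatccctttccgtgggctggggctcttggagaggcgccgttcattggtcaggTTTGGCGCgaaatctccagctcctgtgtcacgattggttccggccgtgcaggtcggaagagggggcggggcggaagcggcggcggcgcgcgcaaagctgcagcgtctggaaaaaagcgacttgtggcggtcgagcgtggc

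The match in DTL begins 8 bases before the start, with another 4 bases past it. In CDC6 the matches begin 28 bases before and 7 bases past the start, in MCM3 174 bases before it, and in MCM6 152 and 90 bases before it. A match describes the letters and does not show that a factor was bound. Such a match was present in 17 of 25 promoters of the licensing list (68.0%), against 901 of 10810 promoters of all tested genes (8.33%) and 5.21% of all 27305 genes with a promoter sequence. The genes called at least 2-fold higher had it in 84 of 440 promoters (19.1%), and those called at least 2-fold lower in 13 of 167 (7.78%). In the promoters of the 2-fold risers there were 102 matches, and 72 of them began between 100 bases before and 50 bases after the start. Positions were not counted in other promoters, so this count does not set the risers apart.

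**Figure D1:**
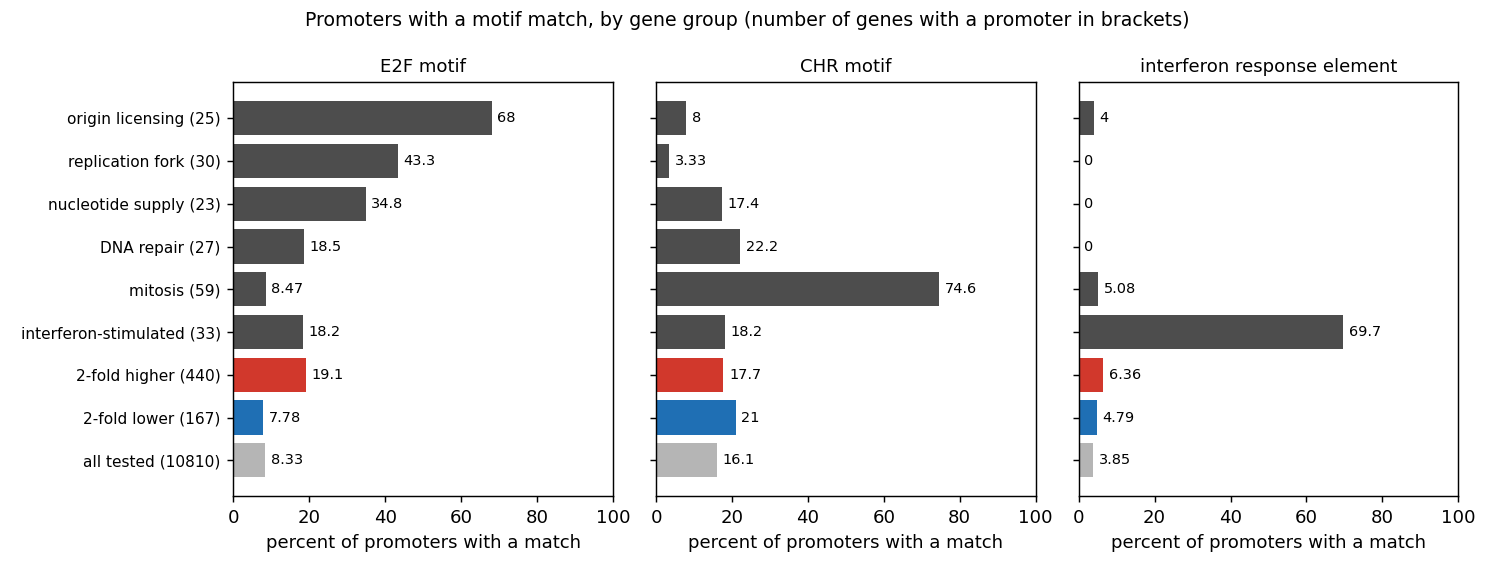
Percent of promoters that hold an E2F, a CHR or an interferon response element match (horizontal axis) in gene lists, in genes called at least 2-fold higher or lower in RB-KD OIS than in Ctrl-KD OIS cells and in all tested genes; bars start at 0. The E2F bar is longest for origin licensing (68.0%), the CHR bar for mitosis (74.6%) and the interferon response element bar for interferon-stimulated genes (69.7%).

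DTL, the substrate receptor of a ubiquitin ligase that destroys licensing factors in S phase, had signals of 131 and 224 in Ctrl-KD OIS cells against 1829 and 2005 after RB depletion, a log2 difference of 3.48 ± 0.22 (SE; adjusted p = 1.57e-05). CDC6, which loads the helicase onto origins, went from 117 and 154 to 1217 and 1371, a difference of 3.27 ± 0.18 (SE; adjusted p = 8.05e-06) on the log2 scale. Both genes were far above their Ctrl-KD levels on each RB-KD OIS array, and the states did not overlap. The helicase subunit MCM3 had 342 and 424 in Ctrl-KD and 3303 and 3709 in RB-KD OIS cells, a difference of 3.20 ± 0.14 (SE; adjusted p = 3.45e-06) on the log2 scale. Another subunit of the same ring, MCM6, had 604 and 544 in Ctrl-KD and 4823 and 5231 in RB-KD OIS cells, which is a log2 difference of 3.13 ± 0.10 (SE; adjusted p = 7.11e-07). MCM2 followed with 203 and 230.2 with RB present and 1619 and 1782 after its depletion, a log2 difference of 2.97 ± 0.13 (SE; adjusted p = 2.73e-06). Each subunit thus sat close together on the arrays of a state and several-fold apart between states. CDT1, the partner of CDC6 in loading, had 154 and 85.8 against 781 and 749.9, a difference of 2.73 ± 0.25 (SE; adjusted p = 0.000142) on the log2 scale. The origin recognition subunits were not uniform, for ORC1 rose with a log2 difference of 2.06 (adjusted p = 0.00185), whereas ORC2, ORC3, ORC4, ORC5 and ORC6 did not pass, with differences from -0.36 to 0.19. Leaving out any 1 array kept the count of higher licensing genes at 19 or 20.

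The growing arrays gave a reference for the size of these rises. Relative to growing cells, the median of the licensing list was -1.43 with RB present and 0.19 after its depletion, comparisons that share arrays with each other and with the one between the OIS states. DTL had 1366 and 1431 in growing cells, between its levels in the OIS states. CCNE2, the gene of cyclin E2, which drives entry into S phase, had 806 and 777 in growing cells, 61.8 and 108 in Ctrl-KD OIS cells and 5312 and 6107 in RB-KD OIS cells. Its other probe set gave a log2 difference of 5.26 between the OIS states, beside 6.13 for the brighter one. CCNE2 therefore lay above the growing level on both RB-KD OIS arrays. The transcription factor ZNF367 behaved alike, with 868 and 760.3 in growing cells, 29.4 and 45.5 in Ctrl-KD OIS cells and 1355 and 1642 in RB-KD OIS cells, at least 31.4-fold higher after RB depletion (adjusted p = 2.73e-06). A fold is written as "at least" where both arrays of the lower state lay under the array median, against which it was then computed.

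**Figure D2:**
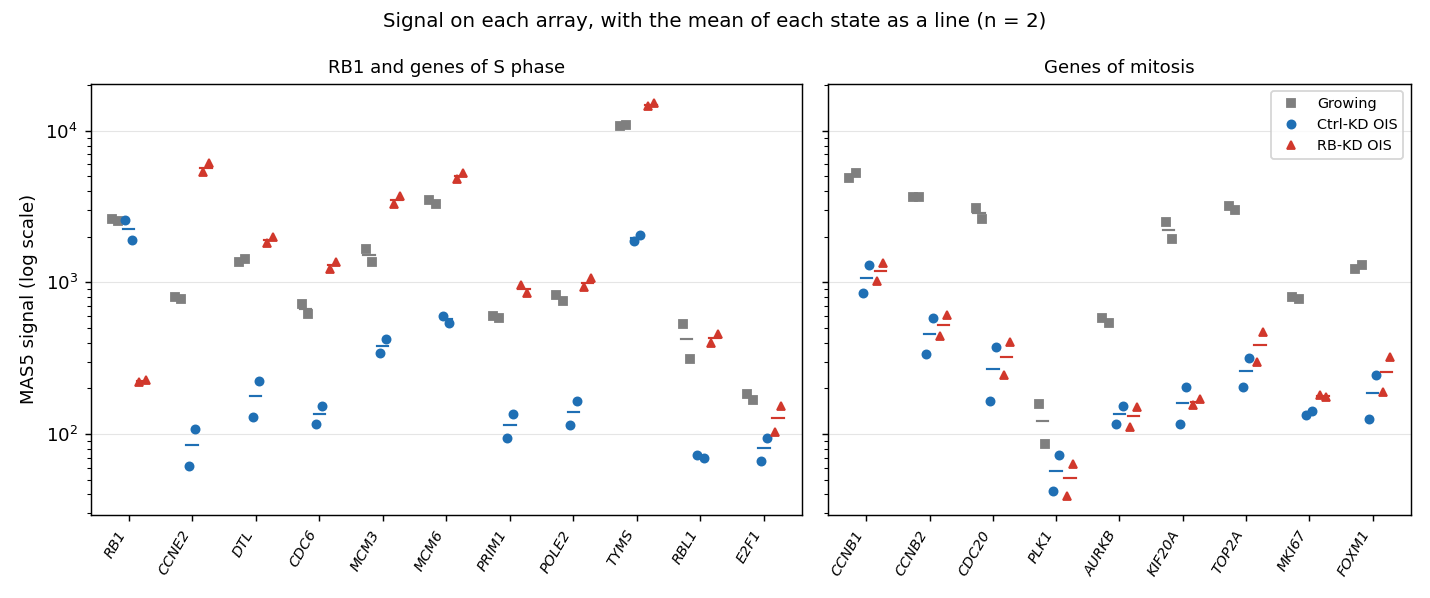
MAS5 signal (vertical log axis) of each array for RB1 and genes of S phase entry on the left and mitotic genes on the right; squares are growing, circles Ctrl-KD OIS and triangles RB-KD OIS arrays, and lines mark the mean (n = 2). The triangles of DTL, CDC6, MCM3 and MCM6 lie above their circles, while those of CCNB1 and KIF20A lie close to them and under the squares.

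The fork and nucleotide genes rose as well. Of 36 tested replication fork genes, 31 were higher (86.1%) and 1 lower, with a median of 1.40. PRIM1, the primase subunit that lays down RNA primers, had 94.1 and 136 with RB present and 955 and 849 without it, a log2 difference of 2.99 ± 0.20 (SE; adjusted p = 2.08e-05). POLE2, a subunit of the leading-strand polymerase, had 114 and 165 on the Ctrl-KD and 927 and 1066 on the RB-KD OIS arrays, which is a log2 difference of 2.86 ± 0.19 (SE; adjusted p = 2.23e-05). The sliding clamp PCNA went from 3969 and 3894 to 14129.7 and 14395, a difference of 1.86 ± 0.07 (SE; adjusted p = 1.86e-06) on the log2 scale, above its 8186 and 8413 in growing cells. POLA1, the catalytic subunit of the priming polymerase, had a log2 difference of 2.44 (adjusted p = 2.96e-05). None of these genes overlapped between the OIS states. The member that fell was POLE3, a histone-fold subunit, by 0.41 on the log2 scale (adjusted p = 0.019). Of 27 genes of nucleotide supply, 15 were higher (55.6%) and 2 lower, RRM2B and IMPDH1, with a median of 0.39. TYMS, the thymidylate synthase, had 1882 and 2053 against 14502 and 15199, which is a log2 difference of 2.92 ± 0.08 (SE; adjusted p = 6.82e-07), and 10723 and 10966 in growing cells. DCK, the deoxycytidine kinase, and RRM1, the large subunit of ribonucleotide reductase, had log2 differences of 1.81 (adjusted p = 9.63e-06) and 1.48 (adjusted p = 3.48e-05). RRM2, the small subunit, had 1997 and 3482 in Ctrl-KD and 4782 and 5451 in RB-KD OIS cells, and its call ended without the second RB-KD OIS array. TK1, the cytosolic thymidine kinase, stayed low at 212 and 253 and 255 and 309 in the OIS states against 1739 and 1731 in growing cells, a difference of 0.27 (adjusted p = 0.26) on the log2 scale between the OIS states. Without the second RB-KD OIS array, 9 nucleotide genes were called higher in place of 15. An E2F match stood in 13 of 30 fork promoters (43.3%) and 8 of 23 nucleotide promoters (34.8%).

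Across the licensing, fork and nucleotide lists together, 66 of 93 tested genes rose and 3 fell, with a median of 1.06. Of 31 genes of DNA repair and the replication checkpoint, 16 were higher (51.6%) and 1 lower, with a median of 0.71. BARD1, the partner of BRCA1, had 105 and 146 in Ctrl-KD OIS and 566 and 654 in RB-KD OIS cells, a difference of 2.30 ± 0.19 (SE; adjusted p = 6.96e-05) on the log2 scale. FANCL, the ubiquitin ligase of the Fanconi anaemia pathway, had 636 and 562 with RB present and 2796 and 2989 after its depletion, which is a log2 difference of 2.27 ± 0.11 (SE; adjusted p = 4.42e-06). Its substrate FANCI and the helicase BRIP1 had log2 differences of 2.06 (adjusted p = 2.11e-05) and 2.04 (adjusted p = 2.94e-05). All 4 were higher on both RB-KD OIS arrays than on either Ctrl-KD OIS array. ATR, a checkpoint kinase, was the member that fell, by 0.39 on the log2 scale (adjusted p = 0.0128).

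Members of the RB and E2F families themselves moved unevenly, with 3 of 13 higher and 1 lower, the latter RB1. RBL1, which encodes the RB relative p107, had 73.1 and 69.7 in Ctrl-KD OIS and 400.3 and 459.7 in RB-KD OIS cells, close to its 531 and 312 in growing cells. Its log2 difference between the OIS states was 2.59 ± 0.26 (SE; adjusted p = 0.000233), a call that ended with the mean of its probe sets (1.59, adjusted p = 0.0999). TFDP1, the dimer partner of E2F factors, had 3973 and 4584 on the Ctrl-KD and 8467 and 8621 on the RB-KD OIS arrays, a difference of 1.00 ± 0.09 (SE; adjusted p = 0.000111) on the log2 scale. E2F3, an activating E2F, had 1658 and 1675 in Ctrl-KD and 2292 and 2263 in RB-KD OIS cells, a smaller difference of 0.45 (adjusted p = 0.00617) on the log2 scale. E2F1 had 66.2 and 94.9 with RB present and 103 and 153 after its depletion and did not pass (0.66, adjusted p = 0.19), with a wide spread inside each state. E2F7, a repressive E2F, had 14579.9 and 13694 on the Ctrl-KD and 11129 and 12458 on the RB-KD OIS arrays and did not pass either (-0.26, adjusted p = 0.0601).

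Of 13 cyclins, kinases and activators of G1 and S phase, 8 were higher (61.5%) and 0 lower. CDK2, the kinase that cyclin E activates, had 761 and 787 against 2747 and 3322, which is a log2 difference of 1.96 ± 0.11 (SE; adjusted p = 9.63e-06). The phosphatase CDC25A, which activates CDK2, had 83.0 and 164 in Ctrl-KD and 402 and 603 in RB-KD OIS cells, a difference of 2.08 ± 0.34 (SE; adjusted p = 0.00237) on the log2 scale. Neither gene overlapped between the states. CCNE1, the gene of cyclin E1, had 893 and 901 with RB present and 2716 and 3524 after its depletion on its brightest probe set (1.79), but the mean of its probe sets gave 0.07 (adjusted p = 0.945). CDK inhibitors did not follow, and 0 of 7 were higher. CDKN1A, which encodes p21, had 17634 and 18714 in Ctrl-KD OIS and 20301 and 18679 in RB-KD OIS cells, a difference of 0.10 (adjusted p = 0.431) on the log2 scale. CDKN2A, the gene of p16, had 1096 and 1151 on the Ctrl-KD and 1276 and 1063 on the RB-KD OIS arrays, which is a log2 difference of 0.05 (adjusted p = 0.811). The arrays of both states overlapped for each of these inhibitors. CDKN2D was called lower (-0.85, adjusted p = 0.0373), but lost the call in 9 of 16 other settings, which included leaving out any array.

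Few mitotic genes passed the test, though most lay above 0. Of 71 tested genes of mitosis and cytokinesis, 58 had a log2 difference above 0 and 13 below. Among all tested genes these counts were 6436 and 6961. The mitotic median was 0.34, beside 0.39 for nucleotide supply and 0.35 for the chromatin genes. Of the 71, 13 were called higher (18.3%) and 2 lower, near the 12.6% of all genes called higher. This count was unsteady, being 26 without the second Ctrl-KD OIS array and 8 without the second RB-KD OIS array, and the median lay between 0.05 and 0.644 when 1 array was left out. CCNB1, the gene of cyclin B1, had 4895 and 5264 in growing cells, 848 and 1303 in Ctrl-KD OIS cells and 1027 and 1354 in RB-KD OIS cells, a difference of 0.17 (adjusted p = 0.6) on the log2 scale between the OIS states. KIF20A, a kinesin of cytokinesis, had 2516 and 1934, then 117 and 203 in Ctrl-KD and 156 and 171 in RB-KD OIS cells, a difference of 0.08 (adjusted p = 0.852) on the log2 scale. AURKB, the kinase of the chromosomal passenger complex, had 116 and 154 and 111 and 151 in the OIS states, which is a log2 difference of -0.05 (adjusted p = 0.916). For these 3 genes the OIS arrays overlapped and lay far under the growing arrays. The proliferation marker MKI67 and the topoisomerase TOP2A gave log2 differences of 0.37 (adjusted p = 0.169) and 0.56 (adjusted p = 0.133). FOXM1, the factor that drives mitotic transcription, had 1223 and 1308 in growing cells and 126 and 245 against 191 and 319.9 in the OIS states, a difference of 0.49 (adjusted p = 0.318) on the log2 scale. As a list, the mitotic genes had a median of -2.67 in Ctrl-KD OIS and -2.31 in RB-KD OIS cells against growing cells, comparisons that share the growing arrays.

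CENPU, ZWINT, CENPK and MELK had the largest rises among the 13 mitotic genes called higher. CENPU, a subunit of the inner kinetochore, had 256 and 409 in Ctrl-KD OIS and 1278 and 1933 in RB-KD OIS cells, which is a log2 difference of 2.28 ± 0.24 (SE; adjusted p = 0.000251). ZWINT, of the outer kinetochore, had 1505 and 2209 with RB present and 6882 and 7785 after its depletion, a difference of 2.01 ± 0.16 (SE; adjusted p = 5.53e-05) on the log2 scale. CENPK, of the inner kinetochore, and the kinase MELK had log2 differences of 1.93 (adjusted p = 0.000147) and 1.45 (adjusted p = 0.000489). CDK1, the mitotic kinase, had 278 and 774 against 1065 and 1456, which is a log2 difference of 1.42 (adjusted p = 0.024), but its call ended when either RB-KD OIS array was left out. CCNB2, which encodes cyclin B2, was not called (3652 and 3642 in growing cells, then 339 and 581 with RB present and 440 and 607 after its depletion, a difference of 0.22 (adjusted p = 0.561) on the log2 scale). Its promoter, on the plus strand at chr15:59104896-59105195 of GRCh38.p14, is printed as an example of the other promoter class, with a CHR match (TTTGAA or TTCGAA, on both strands) in capitals that begins 29 bases before the start.
CCNB2: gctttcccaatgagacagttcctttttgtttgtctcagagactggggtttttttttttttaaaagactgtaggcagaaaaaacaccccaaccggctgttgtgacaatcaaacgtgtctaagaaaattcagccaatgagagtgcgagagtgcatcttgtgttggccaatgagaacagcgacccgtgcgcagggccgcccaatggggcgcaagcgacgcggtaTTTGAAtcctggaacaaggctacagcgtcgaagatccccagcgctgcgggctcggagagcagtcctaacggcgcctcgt

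A CHR match stood in 44 of 59 mitotic promoters (74.6%), 2 of 25 licensing promoters (8.0%) and 1 of 30 fork promoters (3.33%), against 16.1% of all tested genes and 19.5% of all promoters. An E2F match stood in 5 of 59 mitotic promoters (8.47%), close to the share of all tested genes. Of 8 tested subunits and partners of the MuvB complex, 4 were higher and 0 lower. LIN52, a MuvB subunit, and the histone-binding subunit RBBP4 had log2 differences of 0.83 (adjusted p = 0.00282) and 0.76 (adjusted p = 0.000615). MYBL2, which encodes B-MYB, had 12.6 and 42.9 on the Ctrl-KD and 93.8 and 169 on the RB-KD OIS arrays and was at least 2.66-fold higher (adjusted p = 0.012), a call that ended without the second RB-KD OIS array (adjusted p = 0.0864).

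**Figure D3:**
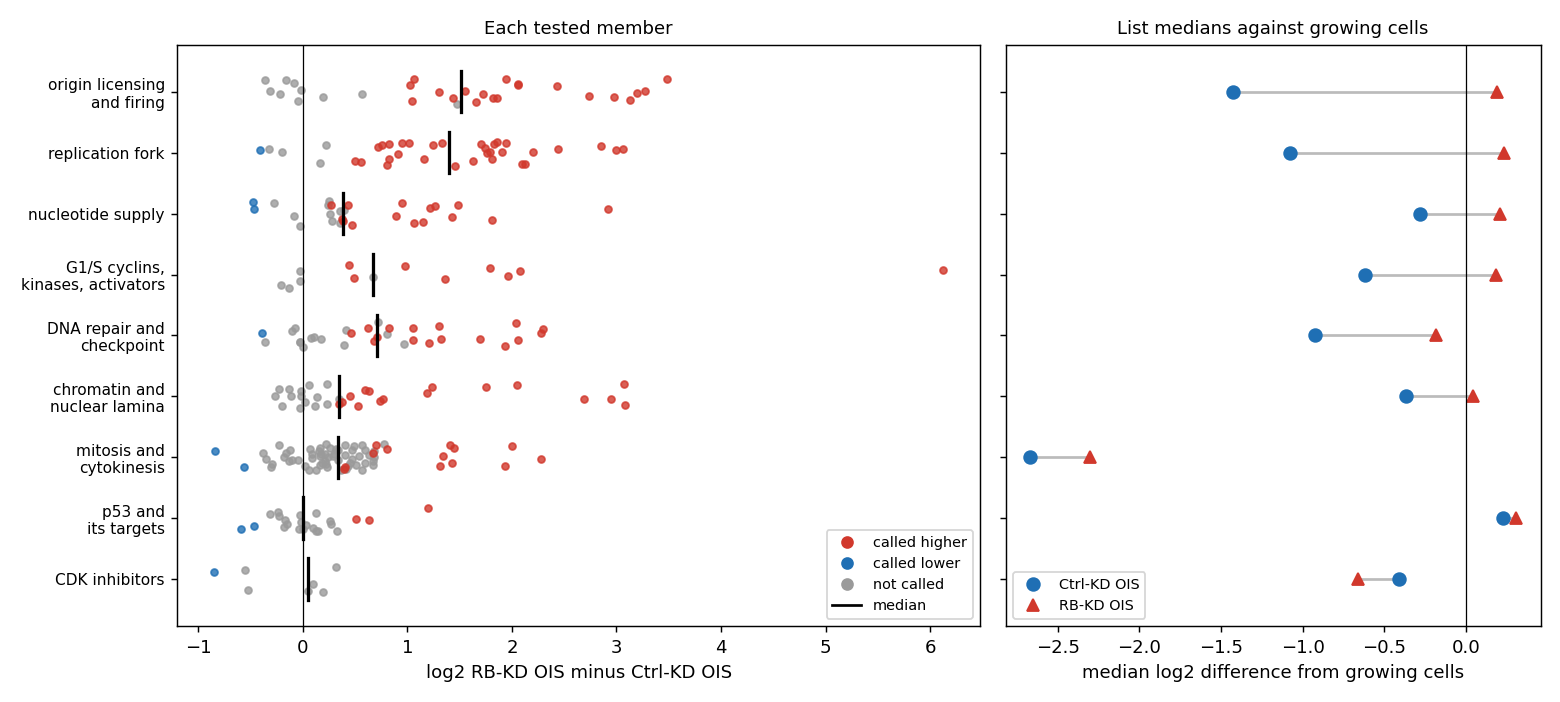
Left, log2 difference of RB-KD OIS minus Ctrl-KD OIS for every tested member of 9 cell cycle and chromatin lists, with a bar at the list median; right, the list medians of Ctrl-KD OIS and of RB-KD OIS cells against growing cells (n = 2 arrays per state, the growing arrays shared). Licensing genes centre on 1.51 and mitotic genes on 0.34 between the OIS states, and against growing cells the RB-KD OIS medians of these lists are 0.19 and -2.31.

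Chromatin genes were a further group that rose, with 16 of 31 higher (51.6%), 0 lower and a median of 0.35. LMNB1, which encodes lamin B1 of the nuclear lamina and is known to be lost in senescence, had 2528 and 2365 in growing cells, 307 and 322 in Ctrl-KD OIS cells and 2197 and 3202 in RB-KD OIS cells, which is a log2 difference of 3.08 ± 0.16 (SE; adjusted p = 7.15e-06) between the OIS states. EZH2, the methyltransferase of H3K27, had 196 and 226 in Ctrl-KD and 1749 and 1791 in RB-KD OIS cells, a difference of 3.07 ± 0.16 (SE; adjusted p = 7.15e-06) on the log2 scale. HELLS, a chromatin remodeller needed for DNA methylation, had 234 and 277 with RB present and 1801 and 2122 after its depletion, which is a log2 difference of 2.94 ± 0.14 (SE; adjusted p = 3.88e-06). Lamin B1 mRNA in RB-KD OIS cells was thus close to its growing level. ASF1B, a histone chaperone of replication, had a log2 difference of 2.69 (adjusted p = 0.000178). HMGB2, a chromatin protein also known to be lost in senescence, had 914 and 1342 against 2299 and 2966 but 10149 and 10273 in growing cells, so that it stayed under the growing level, and its call ended with the mean of its probe sets. LMNA, the gene of lamins A and C, had a log2 difference of -0.03 (adjusted p = 0.861).

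Interferon-stimulated genes rose together. Of 41 tested, 24 were higher (58.5%) and 1 lower, IFI16, with a median of 0.93. An effect of the siRNA sequences on these genes was not tested and cannot be told apart here from that of RB loss. IFIT1, which binds foreign RNA lacking a proper cap, had 469 and 507 in growing cells, 318 and 113 in Ctrl-KD OIS cells and 1751 and 1596 in RB-KD OIS cells, a difference of 3.14 ± 0.38 (SE; adjusted p = 0.000503) on the log2 scale between the OIS states. IFIT3, its partner, had 1021 and 689.9 on the Ctrl-KD and 6284 and 5344 on the RB-KD OIS arrays, which is a log2 difference of 2.79 ± 0.17 (SE; adjusted p = 1.31e-05). HERC5, the ligase that attaches ISG15, had 81.5 and 80.9 in Ctrl-KD and 1023 and 699 in RB-KD OIS cells, a difference of 3.38 ± 0.27 (SE; adjusted p = 5.63e-05) on the log2 scale. Each of these was higher on both RB-KD OIS arrays than on either Ctrl-KD OIS array, though the first Ctrl-KD OIS array read well above the second for IFIT1. IFIT2 and OASL, further antiviral genes, had log2 differences of 3.07 (adjusted p = 0.000102) and 2.31 (adjusted p = 0.000251). ISG15, the ubiquitin-like modifier, had 5278 and 4460.3 with RB present and 11280.3 and 8389 after its depletion, which is a log2 difference of 1.00 (adjusted p = 0.00163), and MX1, an antiviral GTPase, 143 and 54.6 on the Ctrl-KD and 384 and 250.2 on the RB-KD OIS arrays, a call that ended without the second Ctrl-KD OIS or the first RB-KD OIS array. The count of 24 fell to 15 without the second Ctrl-KD OIS array and to 13 without the first RB-KD OIS array, while the list median against growing cells was -0.24 in Ctrl-KD OIS and 0.93 in RB-KD OIS cells. The IFIT1 promoter, on the plus strand at chr10:89392373-89392672 of GRCh38.p14, is printed to show the interferon response element (GAAANNGAAA, on both strands), whose matches, in capitals, are read on the opposite strand and begin 116 and 103 bases before the start.
IFIT1: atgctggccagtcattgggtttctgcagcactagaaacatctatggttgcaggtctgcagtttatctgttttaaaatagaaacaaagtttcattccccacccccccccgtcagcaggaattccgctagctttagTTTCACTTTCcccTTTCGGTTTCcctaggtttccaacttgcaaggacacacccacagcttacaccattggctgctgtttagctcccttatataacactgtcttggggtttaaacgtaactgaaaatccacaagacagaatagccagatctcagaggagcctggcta

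This element stood in 23 of 33 promoters of interferon-stimulated genes (69.7%), against 3.85% of all tested genes, 4.38% of all promoters and 6.36% of the genes called at least 2-fold higher. Of 8 chemokines outside the neutrophil group 3 were higher and 0 lower, with a median of -0.07, and these were CXCL11, CXCL10 and CCL2. CXCL11, a ligand of CXCR3, a chemokine receptor of T cells, had 396 and 187 in Ctrl-KD and 2464 and 2449.9 in RB-KD OIS cells, and CXCL10, its close relative, 1693 and 846 with RB present and 6248 and 4694 after its depletion. CCL2, which attracts monocytes, had 1179 and 989.9 on the Ctrl-KD and 2286 and 2962 on the RB-KD OIS arrays, a difference of 1.27 ± 0.15 (SE; adjusted p = 0.00057) on the log2 scale. CCL4, CCL7 and CCL20 of the same list were not called, with log2 differences of -1.48 (adjusted p = 0.355), -1.40 (adjusted p = 0.267) and -1.24 (adjusted p = 0.126). Of 6 neutrophil-attracting CXC chemokines 0 passed in either direction. CXCL8 was one of the latter, with 47015 and 52419 in Ctrl-KD and 57820.2 and 53673 in RB-KD OIS cells, which is a log2 difference of 0.17 (adjusted p = 0.225), close to the highest signals on the arrays. Of 15 genes of MHC class I and antigen processing 5 were higher and 1 lower, a count of 1 higher without the first RB-KD OIS array, and PSMB9, a subunit of the immunoproteasome, had a log2 difference of 1.15 (adjusted p = 0.000202). Few NF-kB and C/EBP genes were called, with 1 of 20 higher and 0 lower. Their median log2 difference was 0.15, with 15 members above 0 and 5 below, against 6436 and 6961 of all tested genes.

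Cytokines had 5 of 18 higher and 1 lower. IL24, a cytokine of the IL10 family, had 835 and 884 with RB present and 3967 and 3725 after its depletion, and IL11, of the IL6 family, 6016 and 4615 on the Ctrl-KD and 23384 and 16742 on the RB-KD OIS arrays. CSF1, the growth factor of macrophages, had a log2 difference of 1.59 ± 0.21 (SE; adjusted p = 0.000912). Cytokine receptors had 2 of 31 higher and 3 lower, and OSMR, IFNGR1, IL6R and LTBR, which changed most among those called, each lost the call in at least 1 other setting.

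**Figure D4:**
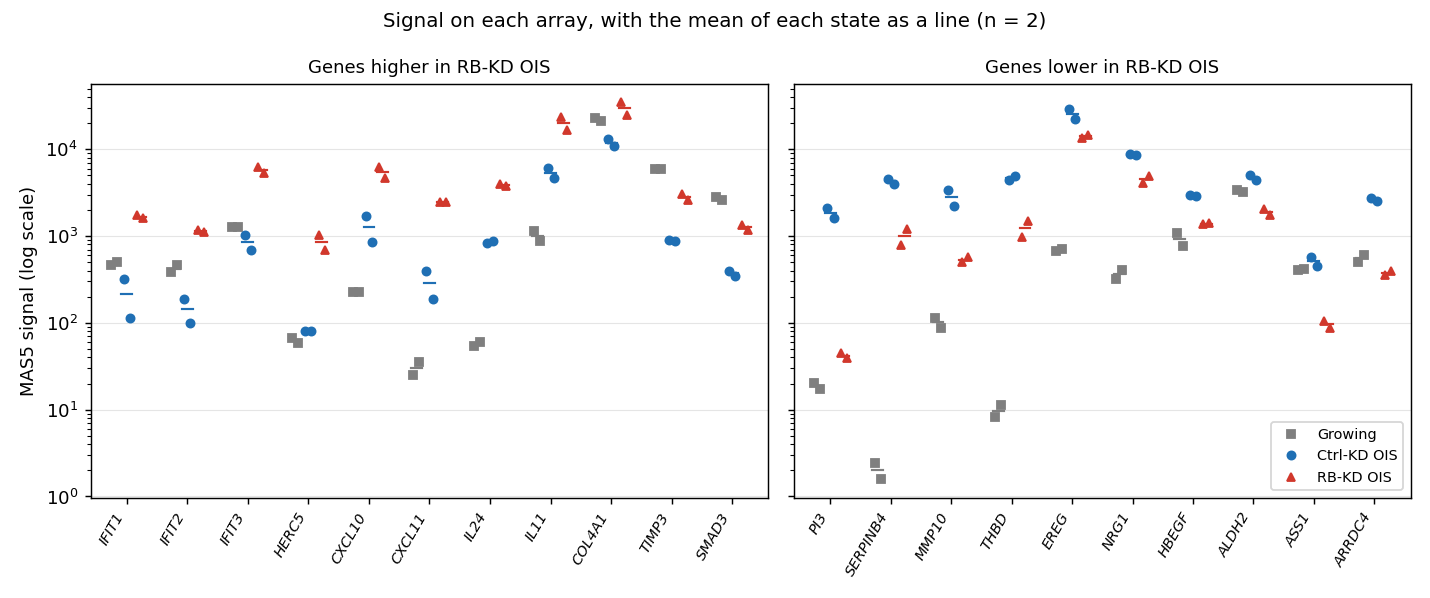
MAS5 signal (vertical log axis) of each array for interferon-stimulated, cytokine and matrix genes on the left and for protease inhibitors, growth factor ligands and metabolic genes on the right; squares are growing, circles Ctrl-KD OIS and triangles RB-KD OIS arrays, and lines mark the mean (n = 2). The triangles of IFIT3 lie above both other states, and those of PI3, SERPINB4 and MMP10 lie under the circles.

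Collagen and contractile genes were called higher more often than lower. Of 25 tested collagen chains, 13 were higher (52.0%) and 0 lower, with a median of 0.59, and without the second Ctrl-KD OIS or the first RB-KD OIS array 8 were. With the mean of probe sets 7 of 24 were higher, and 8 in a fit with no trend in the prior variance. COL4A1, a chain of basement membrane collagen, had 13073 and 10785 in Ctrl-KD OIS and 34599 and 24765 in RB-KD OIS cells, a difference of 1.30 ± 0.15 (SE; adjusted p = 0.000441) on the log2 scale. Of 29 matrix glycoproteins and crosslinking enzymes 10 were higher (34.5%) and 2 lower, the proteoglycan BGN and the lysyl oxidase relative LOXL1, with a median of 0.21, and 5 were higher with no trend in the prior variance. BGN and LOXL1 had log2 differences of -0.89 (adjusted p = 0.00636) and -0.65 (adjusted p = 0.00261), and BGN lost its call with the mean of its probe sets. LUM of this list, the collagen-binding proteoglycan lumican, had 3256 and 2508 in Ctrl-KD and 10657 and 7561 in RB-KD OIS cells, which is a log2 difference of 1.65 ± 0.17 (SE; adjusted p = 0.000209). In COL4A1 and LUM the first RB-KD OIS array read above the second, and both lay above the Ctrl-KD OIS arrays. Of 19 smooth muscle contractile genes 7 were higher (36.8%) and 0 lower, and with the mean of probe sets 4 of 16 were higher. MYOCD, the coactivator that drives this programme, had 125 and 141 with RB present and 478 and 480.2 after its depletion, a difference of 1.85 ± 0.17 (SE; adjusted p = 0.000145) on the log2 scale, and its target TAGLN 2192 and 2855 on the Ctrl-KD and 4495 and 5347 on the RB-KD OIS arrays, which is a log2 difference of 0.97 ± 0.13 (SE; adjusted p = 0.000992). Of 27 genes of TGF-beta, activin and BMP signalling 6 were higher and 1 lower. SMAD3, which carries the TGF-beta signal to the nucleus, had 2799 and 2598 in growing cells, 398 and 344 in Ctrl-KD OIS cells and 1355 and 1179.6 in RB-KD OIS cells, a difference of 1.77 ± 0.12 (SE; adjusted p = 2.94e-05) on the log2 scale. ID3, a BMP target, and LTBP1, which stores TGF-beta in the matrix, had log2 differences of 1.23 (adjusted p = 0.000992) and 0.66 (adjusted p = 0.00129).

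Proteases and their inhibitors went in both directions. Of 16 metalloproteinases and TIMPs 5 were higher and 3 lower, with 3 or 4 higher when any 1 array was left out, and of 11 other protease inhibitors 1 was higher and 4 lower, with 2 lower without the second Ctrl-KD OIS or the first RB-KD OIS array. MMP10, stromelysin 2, fell from 3435 and 2247 to 499.6 and 573, which is a log2 difference of -2.38 ± 0.22 (SE; adjusted p = 0.00013), while MMP12, the macrophage elastase, went from 1459 and 1230.4 to 3629 and 3659.9, a difference of 1.44 ± 0.14 (SE; adjusted p = 0.000184) on the log2 scale. TIMP3, a matrix-bound inhibitor of metalloproteinases, had 5924 and 5903 in growing cells, 898 and 876 in Ctrl-KD OIS cells and 3069 and 2623 in RB-KD OIS cells, which is a log2 difference of 1.68 ± 0.10 (SE; adjusted p = 1.21e-05). PLAT, the tissue plasminogen activator, had 7598 and 5130.1 in Ctrl-KD and 14042 and 14130.4 in RB-KD OIS cells, a difference of 1.17 ± 0.17 (SE; adjusted p = 0.00124) on the log2 scale. These genes did not overlap between the OIS states. PI3, the gene of elafin, an inhibitor of elastase, had 20.1 and 17.1 in growing cells, 2103 and 1621 in Ctrl-KD OIS cells and 44.9 and 38.9 in RB-KD OIS cells, so that its level after RB depletion was again under the array median. SERPINB4, a serpin of squamous epithelia, had 4505 and 4024 with RB present and 785 and 1208 after its depletion, which is a log2 difference of -2.13 ± 0.29 (SE; adjusted p = 0.000973), and its near-identical neighbour SERPINB3 lost its call in 5 of 16 other settings. LCE3D, a cornified envelope gene, fell by 3.02 on the log2 scale (adjusted p = 0.00162). Of 12 keratinocyte envelope genes it was the one called, and 3 passed the filter on low signals. Their summed signal was 721.7 and 838.5 in Ctrl-KD OIS cells and 287 and 336.8 in RB-KD OIS cells, but without LCE3D the sum of the other 11 was 213.1 and 197.4 against 223.1 and 259.5. The MMP10 promoter, on the minus strand at chr11:102780579-102780878 of GRCh38.p14, is printed as that of a secreted protease that fell, with a TATA box (TATAAA, on both strands) in capitals that begins 31 bases before the start.
MMP10: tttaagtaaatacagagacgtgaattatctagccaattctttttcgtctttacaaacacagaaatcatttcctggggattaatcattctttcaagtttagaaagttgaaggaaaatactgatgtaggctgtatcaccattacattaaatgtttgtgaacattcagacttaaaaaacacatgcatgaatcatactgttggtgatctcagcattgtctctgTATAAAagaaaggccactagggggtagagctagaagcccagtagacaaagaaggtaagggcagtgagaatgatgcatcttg

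A TATA box stood in 20 of 167 promoters of genes called at least 2-fold lower, against 9.19% of all tested genes and 14.0% of all promoters. Letters of the AP-1 site (TGACTCA or TGAGTCA) stood in 11 of these 167 (6.59%), against 5.1% of all tested genes and 6.05% of all promoters, and were not found in the window of MMP10.

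Ligands and receptors of the EGF family fell in part, with 3 of 7 tested genes lower and 0 higher. EREG, epiregulin, had 28961 and 22588 in Ctrl-KD OIS and 13630.1 and 14734 in RB-KD OIS cells, a difference of -0.85 ± 0.12 (SE; adjusted p = 0.00106) on the log2 scale. HBEGF had 2985 and 2919.5 on the Ctrl-KD and 1383 and 1401 on the RB-KD OIS arrays, and NRG1, neuregulin, 8725 and 8639 in Ctrl-KD and 4107 and 4899 in RB-KD OIS cells, but both calls ended with the mean of the probe sets of each gene (-0.22 and -0.64, adjusted p = 0.805 and 0.0529). The receptor EGFR had a log2 difference of 0.20 (adjusted p = 0.364). Of 20 RAS genes and responders to ERK signalling 2 were higher and 4 lower, among the latter MYC with 3901 and 3839 with RB present and 2787 and 2713 after its depletion, which is a log2 difference of -0.49 (adjusted p = 0.00428). The called risers of this list were ETV1 (0.89, adjusted p = 0.00197) and DUSP4 (0.75, adjusted p = 0.0491), and DUSP4 lost its call in 10 other settings. Of 10 AP-1 factors 2 were higher and 1 lower, with a median of 0.10. FOSL1, a subunit that ERK stabilizes, fell from 790.1 and 845 in Ctrl-KD to 411 and 452 in RB-KD OIS cells. Its log2 difference was -0.92 ± 0.13 (SE; adjusted p = 0.00137). The higher members were BATF3 (1.22, adjusted p = 0.000353) and ATF3 (1.18, adjusted p = 0.00181), and ATF3 lost its call in 2 other settings. Of 10 genes of plasminogen activation and coagulation 4 were higher and 2 lower, with a median of 0.12. Among the higher were PLAT (1.17, adjusted p = 0.00124) and TFPI (0.59, adjusted p = 0.00672), and TFPI lost its call in 2 other settings. The lower were THBD and PROCR. THBD, thrombomodulin, had 4454 and 4931 in Ctrl-KD and 968 and 1488 in RB-KD OIS cells. PROCR, the receptor of protein C, had 4632 and 4212 with RB present and 2006 and 2147 after its depletion. The log2 difference of PROCR was -1.09 ± 0.12 (SE; adjusted p = 0.000389). FOSL1, EREG, THBD and PROCR did not overlap between the states.

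Cell death and p53 genes showed little common movement. Of 23 genes of p53 and its targets 3 were higher (13.0%) and 2 lower, with a median of 0.00. BAX, a pore former of the mitochondrial membrane, had 2274 and 2369 on the Ctrl-KD and 3599 and 3590.2 on the RB-KD OIS arrays, a difference of 0.63 ± 0.09 (SE; adjusted p = 0.0011) on the log2 scale. Among 20 apoptosis genes 5 were higher and 3 lower. BIK, a BH3-only protein, had 144 and 152 in Ctrl-KD and 478 and 428 in RB-KD OIS cells, which is a log2 difference of 1.61 ± 0.26 (SE; adjusted p = 0.00256), and PMAIP1, which encodes NOXA, 6803 and 7183 with RB present and 15031 and 13265 after its depletion, a difference of 1.01 ± 0.09 (SE; adjusted p = 8.65e-05) on the log2 scale.

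**Figure D5:**
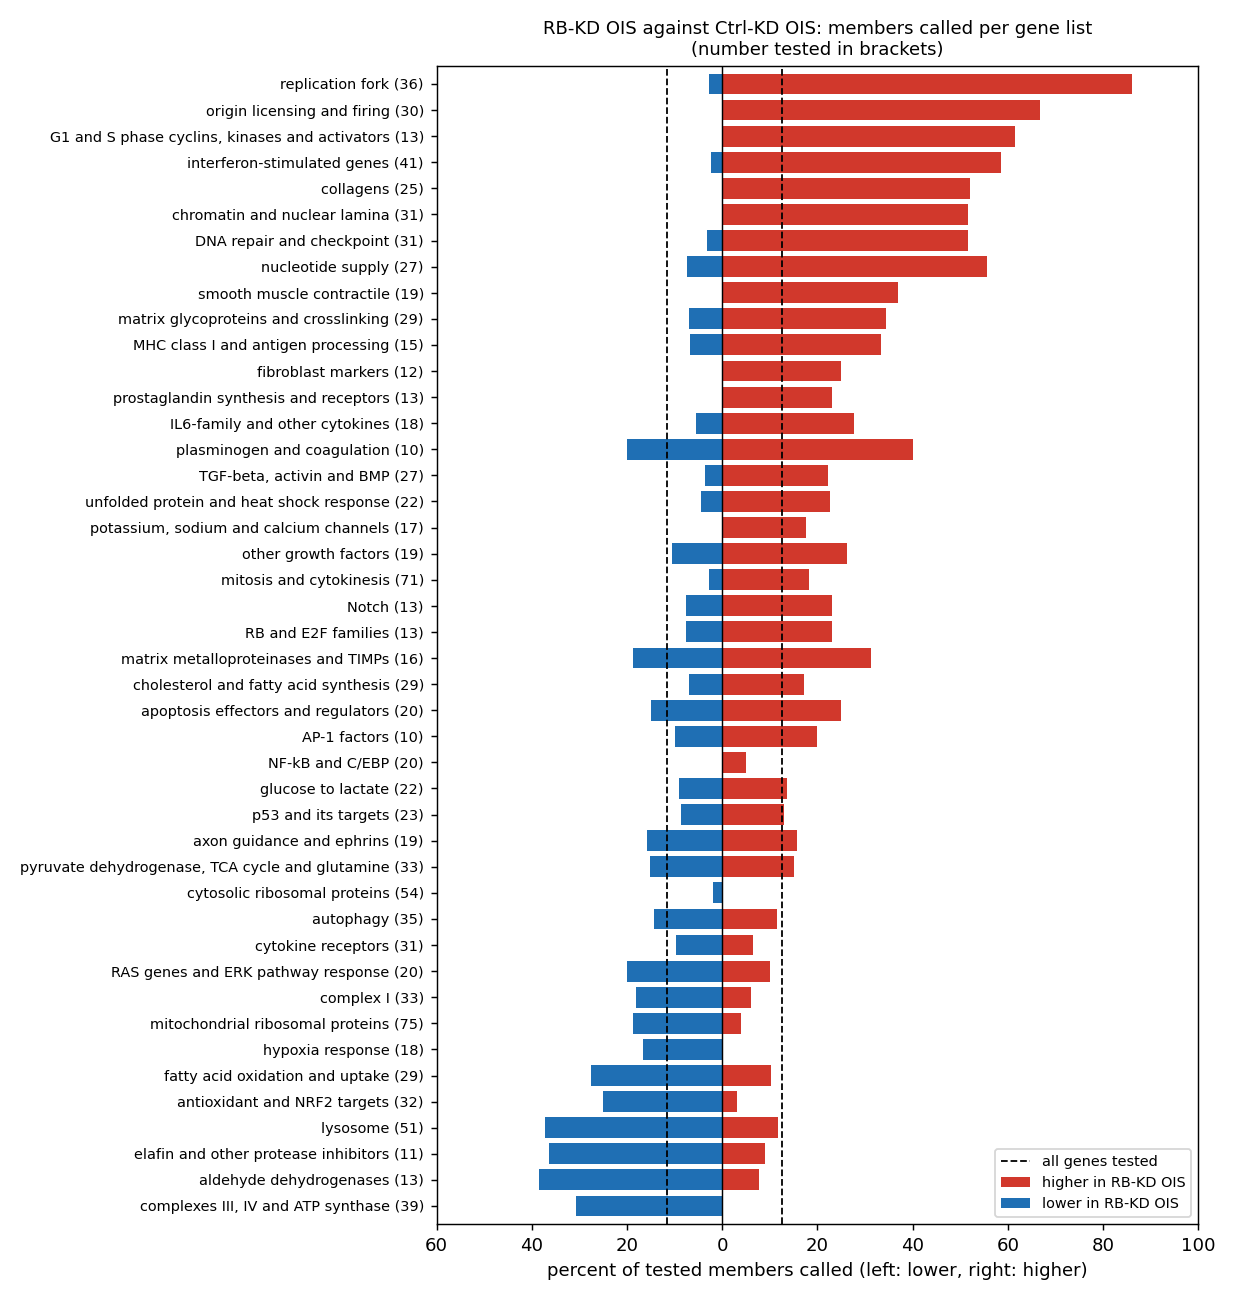
Percent of tested members called higher (to the right) or lower (to the left) in RB-KD OIS than in Ctrl-KD OIS cells for gene lists with at least 10 tested members; dashed lines are the shares of all tested genes, 12.6% and 11.6%. Replication fork genes reach 86.1% to the right, and genes of complexes III, IV and the ATP synthase reach 30.8% to the left.

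Genes of energy metabolism changed by small amounts. Of 39 tested genes of complexes III and IV and the ATP synthase, 0 were higher and 12 lower (30.8%, against 11.6% of all genes), with a median of -0.09. COX15, which makes the haem of cytochrome c oxidase, had 683 and 855 in Ctrl-KD OIS and 394 and 389.8 in RB-KD OIS cells, which is a log2 difference of -0.96 ± 0.15 (SE; adjusted p = 0.00185). SCO2, a copper chaperone of the same enzyme, had 3012 and 3439.5 on the Ctrl-KD and 1936 and 2118 on the RB-KD OIS arrays, a difference of -0.67 ± 0.10 (SE; adjusted p = 0.0018) on the log2 scale, and ATP5ME, a subunit of the ATP synthase, 13786 and 13172 in Ctrl-KD and 9057 and 9331 in RB-KD OIS cells, which is a log2 difference of -0.55 ± 0.08 (SE; adjusted p = 0.00107). The OIS arrays did not overlap in these genes, and no fall of this list reached 2-fold, with COX15 the largest at 1.95-fold. The count of 12 lay between 6 and 11 when 1 array was left out, lowest without the first RB-KD OIS array, and was 6 with the mean of probe sets. Of 33 complex I genes 2 were higher and 6 lower (18.2%), and NDUFA3 had a log2 difference of -0.60 (adjusted p = 0.00271). Mitochondrial ribosomal proteins had 3 of 75 higher and 14 lower (18.7%), and between 4 and 13 lower when 1 array was left out, fewest without the first RB-KD OIS array. MRPL28 fell by 0.71 on the log2 scale (adjusted p = 0.00229), and MRPS6 had a log2 difference of 0.56 (adjusted p = 0.00198). Cytosolic ribosomal proteins had 0 of 54 higher and 1 lower, with a median of 0.05.

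Glucose and fuel genes were mixed. From glucose to lactate 3 of 22 genes were higher and 2 lower, with a median of -0.02. The study picked a small set of metabolic genes for RT-PCR out of a gene cluster formed on these same arrays, so that its count on the arrays is not independent evidence of direction. The paper also reports RT-PCR of this set in independent experiments, which is evidence from outside the arrays. Of its 8 genes 6 were tested here, and 4 of these were lower and 0 higher. They were SCO2, ALDOC, H6PD and PFKM, and of these SCO2 alone kept its call in each setting tried. ALDOC, an aldolase, had a log2 difference of -0.77 (adjusted p = 0.0115) and did not pass without the second RB-KD OIS array (adjusted p = 0.0534). H6PD, of the pentose phosphate route in the endoplasmic reticulum, had a log2 difference of -0.57 (adjusted p = 0.00862), and PFKM, a phosphofructokinase, of -0.46 (adjusted p = 0.00909), and neither passed without the first RB-KD OIS array (adjusted p = 0.0555 and 0.0654). The mean of its probe sets turned the sign of H6PD and ended its call (0.15, adjusted p = 0.777). HK1, a hexokinase, and FLAD1, which makes FAD, were not called (-0.33 (adjusted p = 0.0818) and -0.10 (adjusted p = 0.782)). HADH, a dehydrogenase of fatty acid oxidation, had 601 and 702 with RB present and 3039 and 3308 after its depletion, a difference of 2.29 ± 0.11 (SE; adjusted p = 4.42e-06) on the log2 scale, against the direction of its list, in which 3 of 29 genes were higher and 8 lower (27.6%), with a median of -0.17. IDH2, the mitochondrial isocitrate dehydrogenase, had 804 and 909 on the Ctrl-KD and 2948 and 3212 on the RB-KD OIS arrays, which is a log2 difference of 1.85 ± 0.11 (SE; adjusted p = 9.88e-06), in a list of the TCA cycle with 5 of 33 higher and 5 lower. RPIA, which makes ribose 5-phosphate, had 632 and 882 in Ctrl-KD and 1754 and 2245 in RB-KD OIS cells, a difference of 1.41 ± 0.17 (SE; adjusted p = 0.000564) on the log2 scale.

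Lysosomal genes fell more often than they rose. Of 51 tested lysosomal genes 6 were higher and 19 lower (37.3%), with a median of -0.21, and 12 were lower without the second Ctrl-KD OIS array, 11 without the first RB-KD OIS array and 8 with the mean of probe sets. CTSK, a collagen-degrading cathepsin, went against the list with 2088 and 1962 with RB present and 7001 and 5262 after its depletion, which is a log2 difference of 1.58 ± 0.15 (SE; adjusted p = 0.000147). Of 13 aldehyde dehydrogenases 1 was higher and 5 lower, and between 1 and 3 were lower when 1 array was left out, fewest without the first RB-KD OIS array. ALDH2, the mitochondrial enzyme, had 5011 and 4422 on the Ctrl-KD and 2055 and 1738 on the RB-KD OIS arrays and kept its call in each setting tried. Of 32 antioxidant genes 1 was higher and 8 lower (25%, against 11.6% of all genes), and 4 lower without the first RB-KD OIS array and 2 in a fit with no trend in the prior variance. The median of this list was -0.04, near the -0.02 of all genes, with 14 members above 0 and 18 below. GCLM, the regulatory subunit for glutathione synthesis, had 4971 and 4316 in Ctrl-KD and 2677 and 2706 in RB-KD OIS cells, a difference of -0.78 ± 0.10 (SE; adjusted p = 0.000665) on the log2 scale, and NQO1, a quinone reductase, had a log2 difference of -0.56 (adjusted p = 0.00171). SLC7A11, the cystine importer, was the riser, with 838 and 541 with RB present and 2171 and 1729 after its depletion, which is a log2 difference of 1.53 ± 0.19 (SE; adjusted p = 0.000663).

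Several of the largest single changes lay outside these lists. ALOX5AP, which helps make leukotrienes, had 168 and 149 on the Ctrl-KD and 2245 and 1661 on the RB-KD OIS arrays, a difference of 3.61 ± 0.30 (SE; adjusted p = 7.65e-05) on the log2 scale. TMEM106C, a membrane protein, had 501 and 579.5 in Ctrl-KD and 5073 and 5399 in RB-KD OIS cells, which is a log2 difference of 3.28 ± 0.12 (SE; adjusted p = 1.34e-06), and TCF19, a nuclear protein of the G1/S transition, 82.9 and 99.3 with RB present and 816 and 972 after its depletion, a difference of 3.29 ± 0.17 (SE; adjusted p = 5.24e-06) on the log2 scale. Among the falls, ARRDC4, an arrestin relative that restrains glucose uptake, had 2755 and 2543 on the Ctrl-KD and 360.3 and 398 on the RB-KD OIS arrays, which is a log2 difference of -2.80 ± 0.13 (SE; adjusted p = 4.3e-06). ASS1, the argininosuccinate synthase, had 572 and 456 in Ctrl-KD and 105 and 87.8 in RB-KD OIS cells, a difference of -2.41 ± 0.20 (SE; adjusted p = 6.78e-05) on the log2 scale, and CES1, a carboxylesterase, 753 and 806 with RB present and 197 and 95.8 after its depletion, which is a log2 difference of -2.50 ± 0.34 (SE; adjusted p = 0.000948). These 6 genes were picked among those whose OIS arrays did not overlap.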

How the data were processed

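RNA of 6 IMR90 samples was read on Affymetrix U133 Plus 2.0 arrays. Signals were made by the authors with MAS5 in Expression Console (versions not given in the sources used here). The deposited intensities are these linear signals (0.1 to 64701 over 54613 probe sets), scaled by the authors to a common trimmed mean (496.2 to 496.5) and without detection calls. Their log2 was used without an offset. Each of 19775 genes was read from the brightest of its own probe sets, taken from the 41091 that name 1 gene (1801 name several and 11721 none here). The 13398 genes above the array median (46 to 51.8) on at least 2 of 6 arrays were tested with limma 3.58.1 in R 4.3.3, fitting state means to all 6 arrays, with a prior variance that followed the signal and Benjamini-Hochberg adjustment at 0.05. Across genes, Pearson's r was 0.9205 to 0.9255 for replicates and 0.8934 to 0.9186 for arrays from different states. Precision is limited by the number of arrays.

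The members and the 56 lists (1390 symbols, 1305 with a probe set and 1219 tested) were chosen with earlier results of these data known, and no list was tested as a set. The genes named are RB1, the 15 largest rises and falls among called genes without overlap of the OIS arrays, from each list up to 4 called members that changed most, and the metabolic genes that the study measured by RT-PCR; not every such gene is printed. The 15 largest rises and falls measured above the median on all 4 OIS arrays, the histone groups, members named because they define a list or were the few that moved against it, and the CCNB2, IFIT1 and MMP10 promoters were added after values were seen. Promoters are RefSeq windows of 27305 genes. The same fit was repeated with an offset of 12.5, without the filter or with one at percentile 70, after quantile normalization or median centring, averaging the probe sets of a gene, with specific probe sets only, without the trend, on the OIS arrays alone, with a replicate block, and without each array in turn.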

Additional observations from a re-analysis of the deposited data

How the results depend on the processing

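The counts of 1682 higher and 1556 lower genes were sensitive to how probe sets and spread were treated. Averaging the probe sets of a gene gave 874 and 775, and a prior variance with no trend gave 940 and 641. Specific probe sets, meaning those whose names lack the suffixes _s_at, _x_at and _a_at, gave 1206 and 1035. Leaving out 1 array gave 1067 to 1502 higher and 852 to 1275 lower, the lowest of each without the first RB-KD OIS array. Median centring gave 1490 and 1872, so that 44.3% of the calls were higher in place of 51.9%. With the replicate number as a block the counts were 1831 and 1711. The numbers were not taken to pair the arrays, since deviations of same-numbered arrays from their group means correlated at r = 0.035 between the OIS states. Quantile normalization, the offset, no filter, the stricter filter and the OIS arrays alone kept both counts within 1.5 times. The cause of these shifts was not tested.

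Of 238 named genes that were called, 130 kept the call in each of the 16 other settings in which they could be fitted and 108 lost it in at least 1. Averaged probe sets turned the sign of ACTG2 (-0.14), ANKRD37 (0.54), EBP (-0.031), H6PD (0.15), KDM3A (0.33), NDUFA2 (0.053) and SERPINB8 (0.11), specific probe sets that of ATF3 (-0.68) and NDUFB7 (0.49), and leaving out an array that of FLAD1, which was not called and lay between -0.31 and 0.12. Of the named genes, 120 had another probe set above the array median, and in 108 of these every other probe set moved in the same direction. Among lists, the mean of probe sets or the fit without a trend lowered the counts of higher interferon-stimulated genes from 24 to 19 and 11, of lower lysosomal genes from 19 to 8 in both, of lower genes of complexes III, IV and the ATP synthase from 12 to 6 and 3, and of lower mitochondrial ribosomal protein genes from 14 to 5 and 2. Signals near the array median bound what can be measured, and 41 rises and 37 falls are known only as at least a fold.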

Other observations

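Some clustered histone genes fell, and 3 histone genes outside the clusters rose. Of 10 tested clustered H2B genes, 0 were higher and 4 lower in RB-KD OIS than in Ctrl-KD OIS cells, with a median log2 difference of -1.23, and of 7 clustered H2A genes 0 were higher and 4 lower, with a median of -1.54, where 11.6% of all tested genes were lower. H2BC5 had a signal of 919 and 1039 in growing cells, 3118 and 3302 in Ctrl-KD OIS cells and 632 and 692 in RB-KD OIS cells, a difference of -2.28 ± 0.11 (SE; adjusted p = 4.42e-06) on the log2 scale by limma between the OIS states. H2BC4 had 138 and 177, then 712 and 608 in Ctrl-KD and 107 and 92.8 in RB-KD OIS cells, which is a log2 difference of -2.73 ± 0.22 (SE; adjusted p = 6.78e-05). H2AC6 had 1683 and 1986, then 3542 and 4429 with RB present and 1097 and 1153 after its depletion, a difference of -1.82 ± 0.13 (SE; adjusted p = 3.1e-05) on the log2 scale. All 3 were highest in Ctrl-KD OIS cells and did not overlap between the OIS states. H2BC21 fell by 1.07 on the log2 scale (adjusted p = 0.00108), while H2BC12 had 11660.4 and 14549 on the Ctrl-KD and 11768 and 13425 on the RB-KD OIS arrays, which is a log2 difference of -0.05 (adjusted p = 0.796). Of 8 clustered H3 and H4 genes 0 were higher and 2 lower, and of 3 H1 genes 1 was higher and 1 lower. H2AZ1, which encodes the variant H2A.Z, had 16539 and 17729.7 in Ctrl-KD and 23377 and 23483 in RB-KD OIS cells, with a log2 difference of 0.45 (adjusted p = 0.00254). H2AZ2, its other gene, had a log2 difference of 0.74 (adjusted p = 0.00129). H1-10, a linker histone gene outside the clusters, had 368 and 409.7 against 844 and 823, a difference of 1.10 ± 0.14 (SE; adjusted p = 0.000694) on the log2 scale. The clustered genes are near-identical, so a probe set may read several of them.

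Some genes of amino acid and protein stress rose. Of 22 genes of the unfolded protein and heat shock response 5 were higher (22.7%, against 12.6% of all genes) and 1 lower. The median of this list was 0.08, with 13 members above 0 and 9 below. ATF4, the factor that answers amino acid shortage, had 7639 and 8114 in Ctrl-KD OIS and 16779 and 13809 in RB-KD OIS cells, a difference of 0.95 ± 0.10 (SE; adjusted p = 0.000262) on the log2 scale. CHAC1, a target of ATF4 that degrades glutathione, had 491 and 546 in Ctrl-KD and 1226 and 1205 in RB-KD OIS cells, which is a log2 difference of 1.23 ± 0.12 (SE; adjusted p = 0.000147). Both were higher on each RB-KD OIS array than on the Ctrl-KD OIS arrays. In growing cells ATF4 had 17917 and 17579 and CHAC1 1255 and 1162, so that neither rose past the higher of its growing arrays. Of 19 axon guidance genes 3 were higher and 3 lower. SEMA3C, a secreted semaphorin, had 6432 and 6235 with RB present and 2797 and 3408 after its depletion, a difference of -1.04 ± 0.14 (SE; adjusted p = 0.000876) on the log2 scale, and the receptor ROBO1 fell by 1.02 on the log2 scale (adjusted p = 6.43e-05). TRPA1, a calcium channel that senses irritants, had 7706 and 5745 on the Ctrl-KD and 24203 and 18336 on the RB-KD OIS arrays, which is a log2 difference of 1.66 ± 0.16 (SE; adjusted p = 0.000176). TEK, the angiopoietin receptor, had 377 and 302 in Ctrl-KD and 1379 and 1211 in RB-KD OIS cells, a difference of 1.94 ± 0.15 (SE; adjusted p = 4.18e-05) on the log2 scale, and lay above the array median on all arrays. Of the other 6 endothelial markers PECAM1 lay above it on all 6 arrays, VWF on 3, TIE1 on 2, CLDN5 on 1, and CDH5 and KDR on none. The summed signal of these 6 was 284.3 and 411.3 in Ctrl-KD and 254.3 and 282 in RB-KD OIS cells, and PECAM1, VWF and TIE1 were tested and not called.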
